A study of Homo sapiens with 2 samples.

Results

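The replication-dependent histone genes encode the linker histone H1 and the core histones H2A, H2B, H3 and H4. They were taken as the protein-coding GRCh38 RefSeq genes named H1-1 to H1-6 or with a symbol that starts with H2AC, H2BC, H3C or H4C. This gave 70 genes of 19712 protein-coding genes with a known strand, namely 6 for H1, 17 for H2A, 19 for H2B, 13 for H3 and 15 for H4. Of these, 55 lie on chromosome 6, 13 on chromosome 1, and H4C16 and H2BC12L stand alone on chromosomes 12 and 21. The chromatin came from untreated MDA-MB-231, a human cell line grown from triple-negative breast cancer, with 1 library for PRMT6 and 1 for PARP1. PRMT6 methylates arginines, among them one near the start of the histone H3 protein, and PARP1 attaches ADP-ribose to proteins. A peak caller listed, for each library, the genomic intervals in which its reads piled up. With 1 library per antibody and 1 cell line there is no replicate check, and no test between the antibodies was made.

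Cells need large amounts of these histones while DNA is copied, and the genes are switched on together at that time. They are short, as a rule lack introns, lie in dense clusters with many copies per histone, and give mRNAs that end in a stem-loop in place of a poly(A) tail. Within the nucleus the clusters gather in histone locus bodies around the coactivator NPAT. Many H2A and H2B genes sit head to head, so that a single short stretch of DNA holds the promoters of both.

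The PRMT6 list held 9080 peaks and the PARP1 list 11651. Peak scores are −log10 p-values from the peak caller. The score was used here only to rank peaks within a list (rank 1 is the best) and to place them on a percentile scale from 0 to 100. A gene was counted when a peak came within 3 kb of its 5′ end, taken from the gene record, and such a peak is called a promoter peak. Intervals are 95% exact binomial (Clopper-Pearson) intervals. They cover counting error and treat genes or peaks as independent, which neighbouring histone genes are not.

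The promoters that carry the findings are shown first. Each line is the 250 bases before the 5′ end of the gene record, read 5′ to 3′ on the strand of the gene, from RefSeq (GRCh38.p14). Capitals mark the TATA box (TATAAA, gene strand only), the CCAAT box (CCAAT or its reverse complement ATTGG), the octamer that the POU2F1 family binds (ATTTGCAT or ATGCAAAT) and the H1 box (AAACACA or TGTGTTT). The H2BC11 window (chr6:27132796-27133045, minus strand) is also the H2AC11 promoter and lay under peaks of both lists over all 250 bases. The H2BC4 window (chr6:26123927-26124176, minus strand) is shared with H2AC6, and the H2AC17 window (chr6:27893186-27893435, minus strand) with H2BC17. H2BC3 (chr6:26043714-26043963, minus strand) has no such partner and also had peaks of both lists. H2AC4 (chr6:26033619-26033868, minus strand) and H4C8 (chr6:26285535-26285784, minus strand) had a PARP1 peak only. H2AC18 (chr1:149842751-149843000, minus strand) is one of the duplicated genes of chromosome 1 and had none.
H2BC11: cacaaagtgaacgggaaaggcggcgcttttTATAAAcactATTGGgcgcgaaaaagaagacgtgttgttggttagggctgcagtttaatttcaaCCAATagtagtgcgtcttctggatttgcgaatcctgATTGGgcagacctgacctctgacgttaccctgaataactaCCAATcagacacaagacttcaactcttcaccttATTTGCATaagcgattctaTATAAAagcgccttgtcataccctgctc
H2BC4: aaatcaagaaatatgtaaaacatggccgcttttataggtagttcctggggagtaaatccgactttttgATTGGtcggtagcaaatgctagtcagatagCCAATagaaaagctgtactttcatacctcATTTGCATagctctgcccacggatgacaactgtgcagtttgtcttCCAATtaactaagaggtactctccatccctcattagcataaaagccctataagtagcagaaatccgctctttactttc
H2AC17: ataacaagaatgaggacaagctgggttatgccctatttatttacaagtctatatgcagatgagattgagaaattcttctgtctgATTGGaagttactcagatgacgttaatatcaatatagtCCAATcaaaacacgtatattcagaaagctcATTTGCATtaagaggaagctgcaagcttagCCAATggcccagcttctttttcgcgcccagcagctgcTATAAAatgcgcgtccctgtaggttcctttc
H2BC3: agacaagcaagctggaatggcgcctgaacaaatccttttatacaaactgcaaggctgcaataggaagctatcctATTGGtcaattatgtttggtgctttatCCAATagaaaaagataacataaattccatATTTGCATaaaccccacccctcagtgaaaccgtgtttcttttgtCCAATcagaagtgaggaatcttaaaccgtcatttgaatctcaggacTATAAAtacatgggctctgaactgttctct
H2AC4: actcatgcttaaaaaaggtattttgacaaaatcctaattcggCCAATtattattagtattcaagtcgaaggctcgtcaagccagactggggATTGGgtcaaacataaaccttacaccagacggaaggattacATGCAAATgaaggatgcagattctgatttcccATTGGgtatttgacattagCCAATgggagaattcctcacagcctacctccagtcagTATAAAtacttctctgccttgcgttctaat
H4C8: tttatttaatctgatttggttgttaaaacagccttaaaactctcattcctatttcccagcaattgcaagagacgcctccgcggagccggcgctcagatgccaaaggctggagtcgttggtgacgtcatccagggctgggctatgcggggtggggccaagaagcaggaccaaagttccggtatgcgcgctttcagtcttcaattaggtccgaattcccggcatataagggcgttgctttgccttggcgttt
H2AC18: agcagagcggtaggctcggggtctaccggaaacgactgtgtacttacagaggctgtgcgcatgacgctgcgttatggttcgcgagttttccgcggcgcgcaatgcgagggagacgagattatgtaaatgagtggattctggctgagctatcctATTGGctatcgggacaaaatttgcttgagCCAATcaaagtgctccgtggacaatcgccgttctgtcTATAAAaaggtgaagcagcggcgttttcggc

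The first comparison asked how many histone genes had a peak of each protein. A PARP1 promoter peak was found at 25 of the 70 genes (35.7%, 24.6% to 48.1%), against 22.5% of all protein-coding genes. A PRMT6 promoter peak was found at 15 genes (21.4%, 12.5% to 32.9%), against 18.3% of all protein-coding genes. Each of these 15 genes also had a PARP1 promoter peak, whereas 10 genes had a PARP1 peak only and 45 had neither. Of the 3599 protein-coding genes with a PRMT6 promoter peak, 2636 also had one of PARP1. Among all 19712 genes, 1793 had a PARP1 peak only and 14320 had neither. Peaks of both lists thus stood at 21.4% of the histone genes and at 13.4% of all protein-coding genes. The share of all genes lay below the interval for PARP1 and inside it for PRMT6.

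These counts rest on few peaks, because neighbouring genes share them. The 25 genes with PARP1 were reached by 14 distinct peaks, or 1.79 genes per peak, and the 15 genes with PRMT6 by 7 peaks, or 2.14 genes per peak. Over all protein-coding genes the ratios were 1.15 and 1.18. When 5′ ends within 1 kb of each other were joined into 1 promoter, the 70 genes made 56 promoters, of which 19 (33.9%, 21.8% to 47.8%) had a PARP1 peak and 10 (17.9%, 8.9% to 30.4%) a PRMT6 peak. Counted this way, the interval for PARP1 reached below 22.5%. That share of all genes is per gene, since the other protein-coding genes were not joined, so the 2 values are not strictly alike. When each peak was given to the nearest protein-coding 5′ end only, PARP1 stood at 15 histone genes (21.4%) against 19.8% of all genes, PRMT6 at 8 (11.4%) against 16.3%, and both at 8 against 11.3%. The PARP1 share thus lay close to that of all genes under this rule. A peak equally near to both genes of a pair, as at H2BC11 and H2AC11, still counted for both. At H2BC4 and H2AC6 the peaks counted for H2BC4 only, although they also lay on the shared promoter.

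The width of the window mattered as well. Within 1 kb of the 5′ end, PARP1 peaks stood at 20 histone genes (28.6%, 18.4% to 40.6%) against 20.0% of all genes, and PRMT6 peaks at 9 (12.9%, 6.1% to 23.0%) against 16.4%. Within 500 bp, the shares were 24.3% (14.8% to 36.0%) against 18.5% for PARP1 and 11.4% (5.1% to 21.3%) against 15.2% for PRMT6. Both lists had peaks at 9 genes within 1 kb, against 12% of all genes, and at 8 within 500 bp, against 11.2%. At both narrower widths the interval of the PARP1 share included the share of all genes, and the PRMT6 share lay below that of all genes, within its interval. In the higher-scoring 50% of each list, with the 3 kb window, PARP1 stood at 16 histone genes (22.9%) against 14% of all genes. PRMT6 and both stood at 10 (14.3%), against 13.4% and 8.99%.

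**Figure D1:**
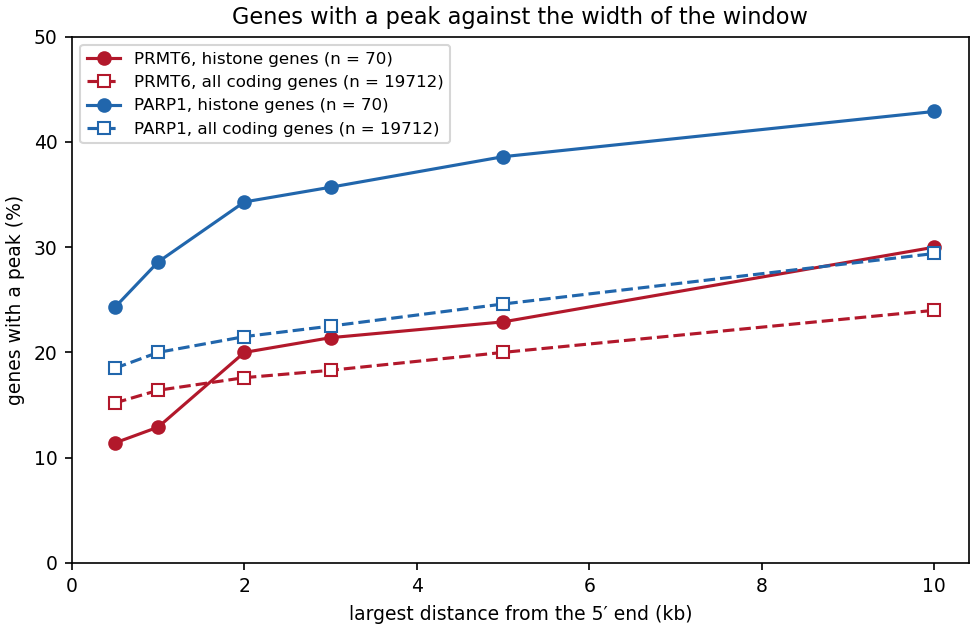
Percentage of genes with a peak (y axis) against the largest distance allowed from the 5′ end in kb (x axis), for the 70 histone genes (filled circles, solid lines) and all 19712 protein-coding genes (open squares, dashed lines), with PRMT6 in red and PARP1 in blue. The PARP1 line of the histone genes runs above that of all genes at each width, while the PRMT6 line starts below that of all genes (11.4% against 15.2% at 500 bp) and crosses it between 1 and 2 kb.

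The second comparison split the genes by histone type. H2A and H2B, which form the dimers of the nucleosome core, held most of the peaks. PARP1 promoter peaks were found at 8 of 17 H2A genes and 8 of 19 H2B genes, and PRMT6 promoter peaks at 6 of each. Among the H3 genes, 4 of 13 had a PARP1 peak and 2 a PRMT6 peak. Among the H4 genes, 3 of 15 had a PARP1 peak and none a PRMT6 peak, for which the interval allows up to 21.8%. Of the 6 genes of the linker histone H1, H1-2 had peaks of both lists and H1-4 a PARP1 peak. Of all protein-coding genes, 22.5% had a PARP1 peak and 18.3% a PRMT6 peak. These shares lay inside the interval of every type, except for PARP1 at H2A (47.1%, 23.0% to 72.2%), where 22.5% lay just below. The intervals of all types overlapped in each list, so the order of the types is a description of these libraries.

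**Figure D2:**
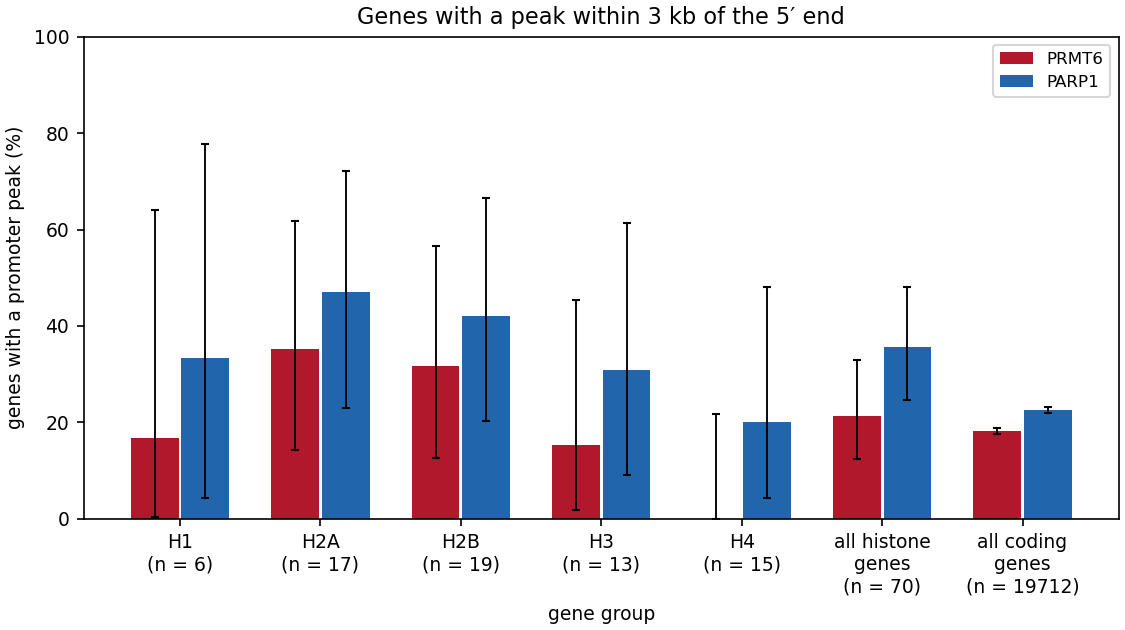
Percentage of genes with a promoter peak within 3 kb (y axis) by histone type, for all 70 histone genes and for all protein-coding genes (x axis, with the number of genes), PRMT6 in red and PARP1 in blue; error bars are 95% exact binomial intervals. The bars are highest for H2A (35.3% and 47.1%) and H2B (31.6% and 42.1%), and H4 has no PRMT6 bar (0 of 15).

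Within 500 bp of the 5′ ends, PRMT6 peaks stood at 4 of 17 H2A genes (H2AC6, H2AC11, H2AC17 and H2AC21) and 4 of 19 H2B genes (H2BC3, H2BC4, H2BC11 and H2BC17). They stood at 0 of 6 H1 genes, 0 of 13 H3 genes and 0 of 15 H4 genes, which allows shares of up to 45.9%, 24.7% and 21.8%. PARP1 peaks stood within 500 bp at 7 H2A genes (interval 18.4% to 67.1%), 7 H2B genes (16.3% to 61.6%) and 3 H4 genes (4.3% to 48.1%), and at 0 genes of H1 and H3. The shares of all protein-coding genes at this width, 15.2% for PRMT6 and 18.5% for PARP1, lay inside the interval of every type. No type was thus set apart within 500 bp. The 4 H3 genes counted within 3 kb were each reached by a peak that lay nearer to another histone gene. For H3C1 that gene was H4C1, for H3C2 it was H2AC4, for H3C3 it was H2BC3 and for H3C12 it was H2BC17. The peak counted for H1-4 lay on the 5′ end of H2BC5, 977 bp past the end of the H1-4 record.

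Some peaks were nearest to a gene but away from its start, as those behind H1-2 and the PRMT6 peak near H2AC15. The 5′ end lay inside a peak at 13 of the 25 genes with PARP1 and at 5 of the 15 genes with PRMT6. The centre of the best-ranked PARP1 peak was within 500 bp of the 5′ end at 17 genes and more than 1 kb away at 8, with 0 in between. For PRMT6 the corresponding numbers were 8 and 7, again with 0 in between. The median distance of the centre was 166 bp for PARP1 and 472 bp for PRMT6.

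**Figure D3:**
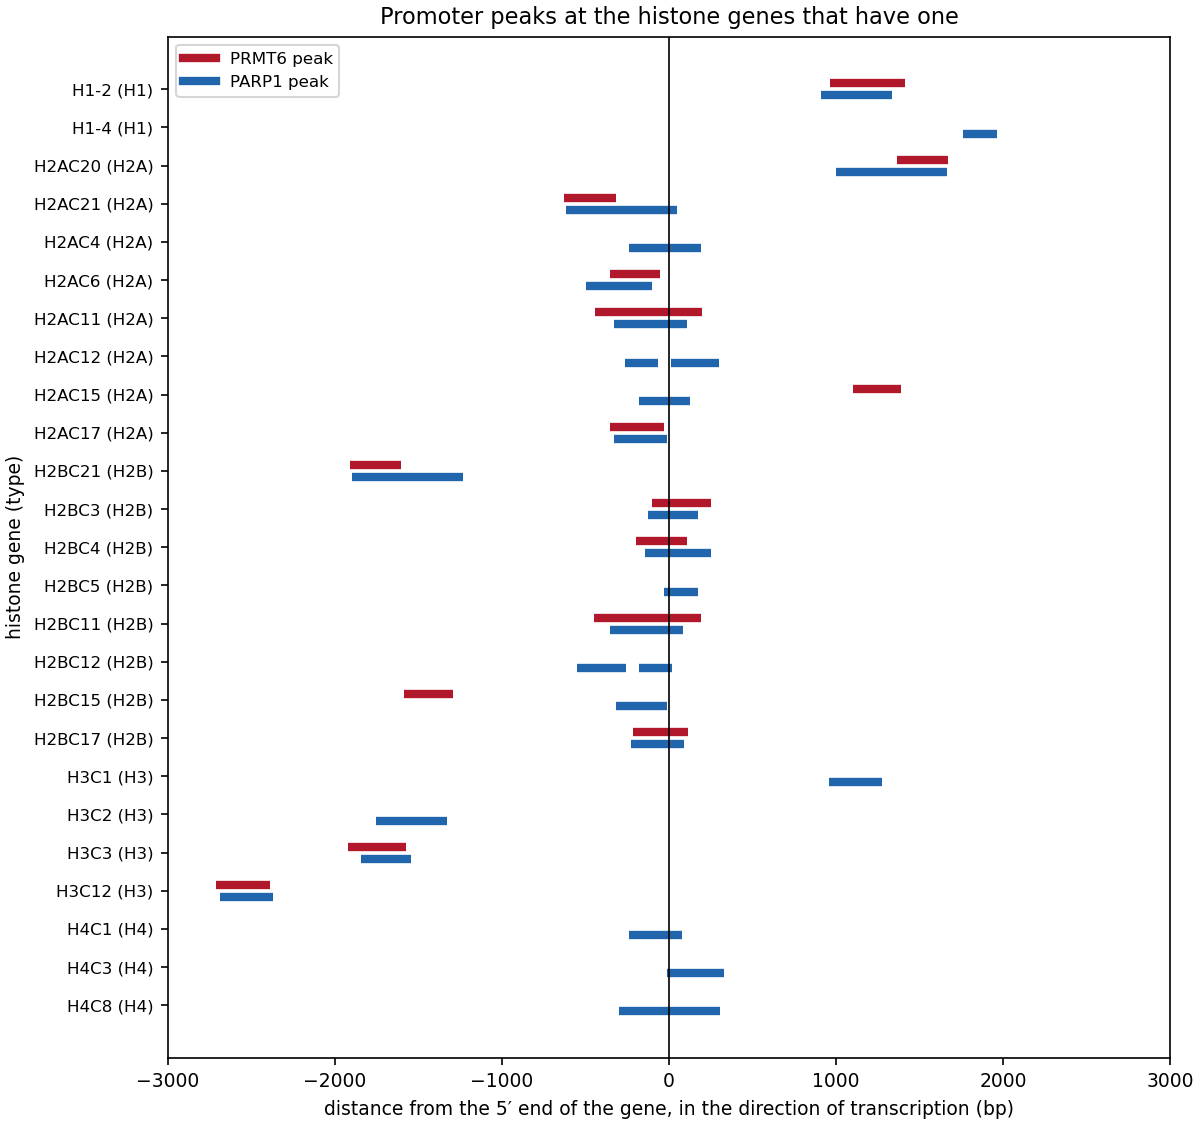
Peaks at the 25 histone genes with a promoter peak, drawn to scale as distance in bp from the 5′ end in the direction of transcription (x axis), 1 row per gene with its type (y axis), PRMT6 in red and PARP1 in blue. Peaks at H4 genes and at most H2A and H2B genes lie near 0. Those of the H1 and H3 genes, of H2BC21 and H2AC20, and the PRMT6 peaks of H2AC15 and H2BC15 have their centres more than 1 kb to one side.

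The best-ranked PARP1 peak at a histone gene covered the shared promoter of H2BC11 and H2AC11 (chromosome 6, 27132712 to 27133149), with rank 1067 of 11651 and a score of 12.73. The PRMT6 peak there (27132601 to 27133242, rank 2410 of 9080, score 7.11) contained it whole, and both spanned the 5′ ends of the 2 genes. This was the site where the lists matched most closely, with centres 9 bp apart. The next PARP1 peak lay over H4C3 (26103924 to 26104262, rank 1223, score 12.08), where it covered 81.5% of the gene record, and the nearest PRMT6 peak was 19884 bp from the 5′ end. H4C3 was thus a strongly ranked PARP1 site with no PRMT6 peak near it.

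At H2BC4 and H2AC6 the PARP1 peak (26123676 to 26124069) ranked 1891 and the PRMT6 peak (26123817 to 26124121) ranked 4051, and 252 bp were shared. At H2BC3 the peaks (26043542 to 26043838 for PARP1 and 26043464 to 26043812 for PRMT6) spanned the 5′ end, with ranks of 3238 and 2674. Both pairs of peaks lay on the promoter sequences shown above. On chromosome 1 the single PARP1 peak (149887917 to 149888580, rank 3907) spanned the 5′ end of H2AC21, and the PRMT6 peak (149888284 to 149888591, rank 2198) began 319 bp upstream of it. Through the 3 kb window these peaks were also counted for H2AC20 and H2BC21, whose own shared promoter they did not reach.

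The best-ranked PRMT6 peak at a histone gene was the one counted for H1-2 (26055056 to 26055503, rank 1697, score 8.32). It lay behind the gene, 237 bp past the end of the record, and overlapped a PARP1 peak (26055135 to 26055558, rank 5328) by 368 bp. The last of the sites with overlapping peaks of both lists was the shared promoter of H2AC17 and H2BC17. A PRMT6 peak (27893212 to 27893540, rank 4600) and a PARP1 peak (27893195 to 27893517, rank 4307) lay over the 5′ end of H2BC17. The same peaks were counted for H3C12, whose 5′ end was 2386 bp away from the PRMT6 peak.

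Most PARP1 peaks at histone genes without a PRMT6 peak on top stood further down their list, but those of H4C3 and H4C1 did not. Whether such peaks also stood lower at the promoters of other genes was not examined. At H4C1 the PARP1 peak (26021411 to 26021729) ranked 4350, and it was also counted for H3C1. H4C8 had a peak of 609 bp (26285226 to 26285835, rank 6481) that covered 75.6% of the record. The tRNA gene TRX-CAT1-2 lay within 1 kb of this peak, and it was the only such case among the 21 peaks. Peaks at H2AC4 (26033427 to 26033856, rank 8871), H2BC5 (26158092 to 26158292, rank 9666) and the H2BC12 and H2AC12 promoter (27147117 to 27147406, rank 7982, and 27146840 to 27147040, rank 10143) came from the lower part of the list. H2AC15 and H2BC15 had peaks of both lists that did not meet. The PARP1 peak (27838252 to 27838555, rank 6943) lay on their shared promoter, and the PRMT6 peak (27836985 to 27837273, rank 8733) lay 1102 bp from the nearer 5′ end.

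The third comparison asked whether peaks of the 2 lists overlapped. Of the 7 PRMT6 peaks at histone genes, 6 shared 1 bp or more with a PARP1 peak (85.7%, 42.1% to 99.6%). Of the PRMT6 peaks at any protein-coding promoter, 69.1% did (67.5% to 70.8%). Of the 14 PARP1 peaks, 6 met one of PRMT6 (42.9%, 17.7% to 71.1%), against 54.9% of PARP1 peaks at any protein-coding promoter (53.3% to 56.5%). Both intervals at histone genes included the shares over all promoters.

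Scores at the histone genes were near those of other promoters. The median score percentile was 70.2 for the PRMT6 peaks at histone genes (range 3.8 to 81.1) and 70.2 for all PRMT6 promoter peaks. For PARP1 it was 58.3 (range 12.8 to 90.8) at histone genes and 60.2 at all promoters. Of the 7 PRMT6 peaks at histone genes 0, and of the 14 PARP1 peaks 1, that of H2BC11 and H2AC11, belonged to the best 10% of the list. At any protein-coding promoter, 572 of 3040 PRMT6 peaks and 541 of 3858 PARP1 peaks did. With so few peaks at histone genes, these counts do not show a lack of strong peaks. At the 6 sites with overlapping peaks, the percentile was higher for PARP1 at 4 and higher for PRMT6 at 2. The widest gaps were at H2BC4 and H2AC6, with 55.3 for PRMT6 and 83.7 for PARP1, and at H1-2, with 81.1 for PRMT6 and 54.0 for PARP1. Of the 8 PARP1 peaks that met no PRMT6 peak, those of H4C3 at percentile 89.5 and H4C1 at 62.6 lay in the upper part of the list, and the other 6 lay at 44.3 or below.

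**Figure D4:**
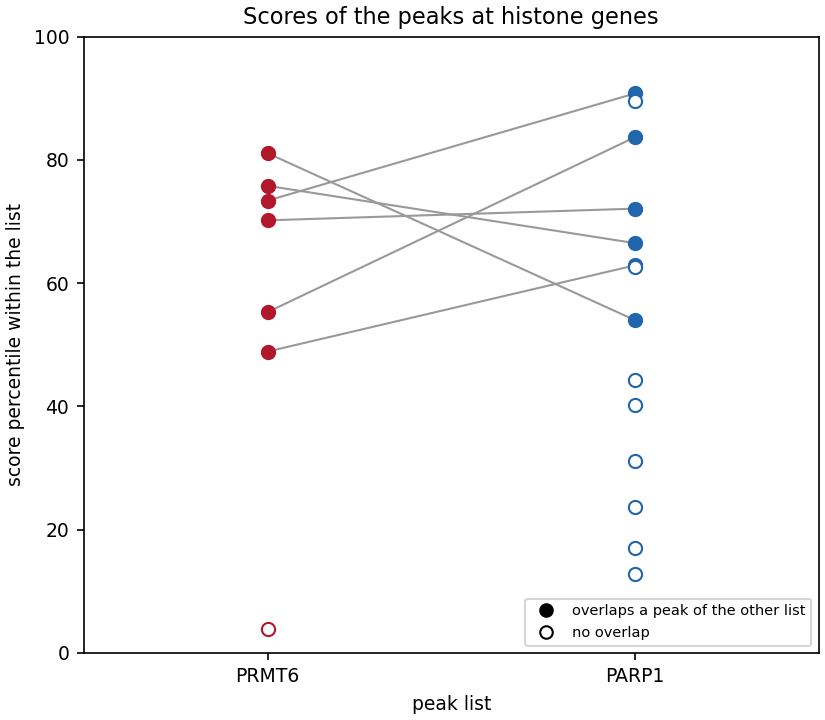
Score percentile within its own list (y axis) of each peak at a histone gene, with 7 PRMT6 peaks on the left in red and 14 PARP1 peaks on the right in blue; filled points overlap a peak of the other list and grey lines join the 6 overlapping pairs. Overlapping PARP1 peaks lie at 54.0 or above, the open PARP1 points reach from 12.8 to 89.5, and the open PRMT6 point lies at 3.8.

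The fourth comparison followed the clusters along the chromosomes. Members less than 500 kb apart were joined, which gave 3 groups on chromosome 6 and 2 on chromosome 1. The group from H2AC1 to H4C8 (chromosome 6, 25726063 to 26285534) held 34 genes, of which 13 had a PARP1 peak and 5 a PRMT6 peak. The short group from H2BC11 to H2AC12 (27132316 to 27147562) held 5 genes, of which 4 had a PARP1 peak and 2 a PRMT6 peak, and H4C9 alone had none. In the group from H2BC13 to H2BC17 (27807479 to 27893891), 5 of 16 genes had peaks of both lists. In the chromosome 1 group from H2BC18 to H2AC21 (149782689 to 149887965), 3 of 11 genes did, all through the peaks beside H2AC21. H2AC25 and H2BC26 (chromosome 1, 228457364 to 228458558), H4C16 and H2BC12L had none. The shares of all protein-coding genes were 22.5% for PARP1 and 18.3% for PRMT6. They lay inside the interval of every group but for PARP1 in the short group of 5 genes (80.0%, 28.4% to 99.5%). Its 4 genes were reached by 3 distinct peaks, so the clusters were not set apart by these counts.

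Genes without peaks included several runs of neighbours. All 10 genes with a PARP1 peak only lay on chromosome 6, 8 of them in the group from H2AC1 to H4C8. In the same group, 16 neighbouring genes from H2BC6 to H2BC10 (26183761 to 26273412, 89.7 kb) had no peak of either list at or between them. They comprised every histone type, namely H1-3, H2AC7, H2AC8, H2BC6, H2BC7, H2BC8, H2BC9, H2BC10, H3C4, H3C6, H3C7, H3C8, H4C4, H4C5, H4C6 and H4C7. A run of 7 genes (H2BC13, H2AC13, H3C10, H2AC14, H2BC14, H4C11 and H4C12, 27807479 to 27831560) and one of 4 genes (H2AC16, H1-5, H3C11 and H4C13, 27865317 to 27873534) were also free of peaks, as was the testis histone pair H2AC1 and H2BC1. H1-1, H1-6, H4C2 and H4C9 stood alone or next to genes with peaks and had none. H1-1 lay just outside the 3 kb window, with its nearest PRMT6 peak at 3535 bp and its nearest PARP1 peak at 3624 bp, and H1-6 was 3873 bp from a PARP1 peak.

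**Figure D5:**
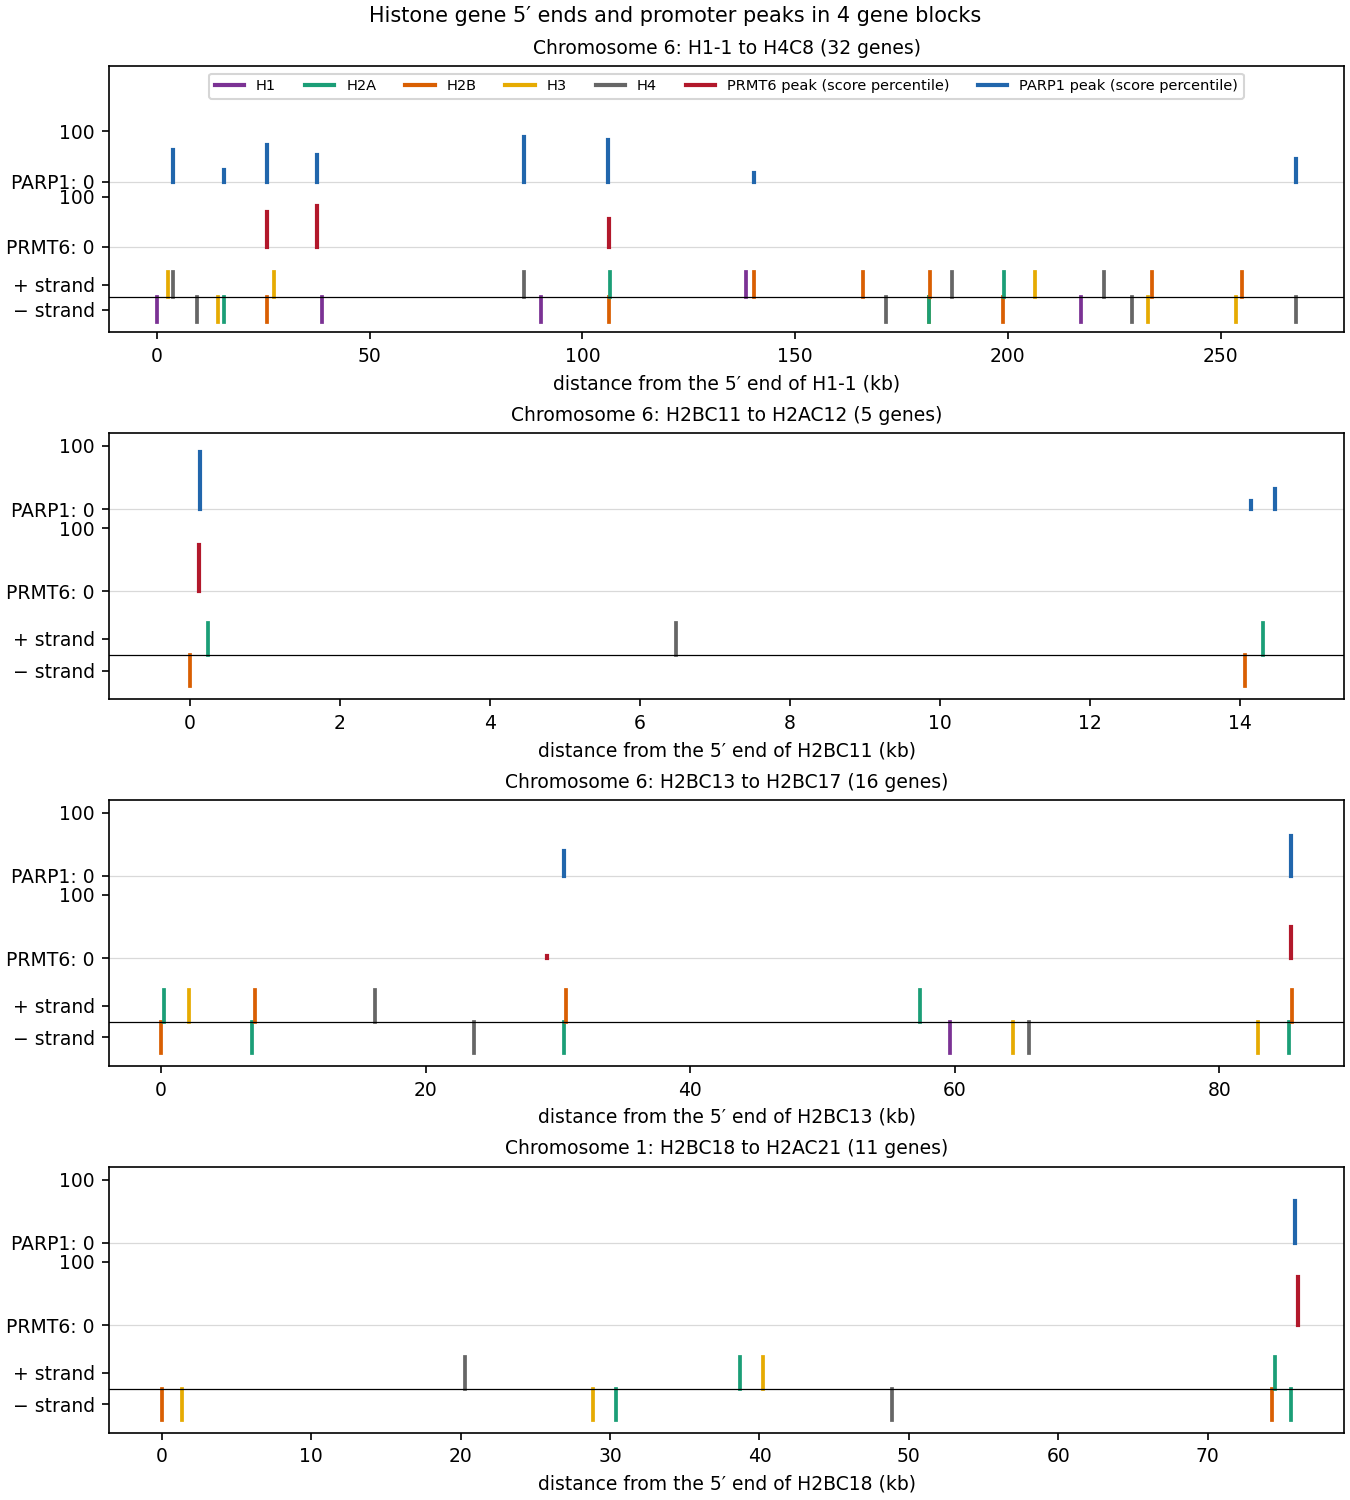
Histone gene 5′ ends (lower ticks, upward for the plus and downward for the minus strand, coloured by type) and promoter peaks (PRMT6 in red, PARP1 in blue, with height as score percentile from 0 to 100) along 4 stretches of chromosomes 6 and 1, with distance from the first 5′ end in kb on the x axis. In the top panel the 16 genes between H2BC5 and H4C8 have no peak, and in the lowest panel all peaks lie at the right end beside H2AC21.

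On chromosome 1, 8 neighbouring genes (H2BC18, H3C13, H4C14, H3C14, H2AC18, H2AC19, H3C15 and H4C15, 149782689 to 149861240) had no peak of either list. They include duplicated genes, and this limits what can be read from them. In the RefSeq promoter windows, H2AC18 shared 268 of its 269 words of 32 bases with H2AC19, and H3C14 shared 265 of 269 with H3C15. Within this run of genes, such sharing was shown for these pairs only. No promoter sequence was at hand for H4C15, so it could not be compared with H4C14 or any other gene. Reads that lie wholly in identical sequence cannot be assigned to one copy. How the authors treated such reads is not given in the sources used here. H4C11 and H4C12 on chromosome 6, which also had no peak, shared 160 of 269 words. Their part in the missing peaks was not tested.

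The head-to-head arrangement could be followed at 12 pairs of an H2A and an H2B gene, whose 5′ ends were 194 to 248 bp apart. A PARP1 peak reached the stretch between the 5′ ends in 5 pairs (H2BC4 and H2AC6, H2BC11 and H2AC11, H2BC12 and H2AC12, H2AC15 and H2BC15, H2AC17 and H2BC17), and a PRMT6 peak in 3 of these (H2BC4 and H2AC6, H2BC11 and H2AC11, H2AC17 and H2BC17). Of the 27 genes in a head-to-head arrangement with another histone gene within 1 kb, 10 had a PRMT6 peak (37.0%, 19.4% to 57.6%) and 12 a PARP1 peak (44.4%, 25.5% to 64.7%). Of the 43 other histone genes, 5 (11.6%, 3.9% to 25.1%) and 13 (30.2%, 17.2% to 46.1%) did. Over all protein-coding genes, head-to-head genes also had more peaks, with 36.2% against 16.2% for PRMT6 and 46.0% against 19.8% for PARP1. Among head-to-head genes the histone shares were thus close to those of all such genes, and the intervals included them.

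The promoter sequences of the histone genes were rich in elements that most other promoters lack. A sequence of the window was at hand for 63 of the 70 genes and for 13819 protein-coding genes. TATAAA, counted as the TATA box at any position of the window, was present at 58.7% of the histone genes and 6.97% of all. In the histone genes its first base lay at a median position of -31 from the 5′ end. In 34 of these genes one began 20 to 40 bases before the 5′ end. The CCAAT box, which the factor NF-Y binds, was present at 85.7% and 35.2%, and the octamer at 41.3% and 1.72%. The H1 box was present at all 6 H1 genes and at 3.63% of all genes. The median content of G and C was 42.4% against 62.4%, while the median ratio of observed to expected CpG was 0.80 against 0.74.

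The motifs differed by histone type. Every H1, H2A, H2B and H3 promoter searched held a CCAAT box, and 3 of 12 H4 promoters did. The octamer was found at 14 of 18 H2B and 11 of 16 H2A promoters, at 1 of 11 H3 promoters and at 0 of 12 H4 promoters. The H3 promoter in question is that of H3C4, whose record begins at the same base as that of H2AC7. All 14 genes with a PRMT6 peak and a sequence had a CCAAT box, and 10 of them an octamer. Of the 49 genes without a PRMT6 peak, 40 had a CCAAT box and 16 an octamer. For PARP1, an octamer was found at 12 of 21 genes with and 14 of 42 genes without a peak. The windows of head-to-head partners overlap, so the same octamer or CCAAT box can count for both genes, as at H2BC4 and H2AC6. The genes in these counts are therefore not independent. At H2AC20 and H2BC21 the counted octamer lay in a promoter that the peaks did not reach. Since H2A and H2B genes hold both the octamers and most of the peaks, histone type and motif cannot be told apart in these counts.

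Histone genes that are expressed outside DNA replication were counted for comparison. Of 11 such genes, 6 had a PRMT6 peak and 6 a PARP1 peak (54.5% each, 23.4% to 83.3%), against 18.3% and 22.5% of all protein-coding genes, and 5 had both, against 13.4%. These intervals overlapped those of the replication-dependent genes, and the difference was not tested. Both lists had peaks at H2AX, H2AZ2, H3-3A, H3-3B and CENPA, the centromeric H3. H1-10 had a PRMT6 peak only and H2AZ1 a PARP1 peak only. H2AJ, MACROH2A1, MACROH2A2 and H3-5 had none. H2AX, whose protein marks DNA breaks, ranked 529 for PRMT6 and 1102 for PARP1, so its PRMT6 peak stood above each PRMT6 peak at a replication-dependent gene.

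Among 24 genes for factors of histone gene expression, 12 had a PARP1 peak (50%, 29.1% to 70.9%), against 22.5% of all protein-coding genes. Of these, 9 also had a PRMT6 peak (37.5% of the 24, 18.8% to 59.4%), against 18.3% for PRMT6 and 13.4% for both. Genes next to those of this list were not examined, so a peak counted here may also lie at the promoter of a neighbouring gene. Over all protein-coding genes in a head-to-head arrangement, 46.0% had a PARP1 peak and 36.2% a PRMT6 peak. The gene of NPAT had the ranks 306 for PRMT6 and 183 for PARP1. NFYA, a subunit of NF-Y, ranked 22 and 69, the best of this list for both proteins, while NFYB and NFYC had no promoter peak. POU2F1, an octamer-binding factor, ranked 891 and 866, and HINFP, a regulator of H4 genes, 2121 and 4456. Of the genes for 3′ end processing, SLBP, which encodes the stem-loop binding protein, ranked 6620 and 8153, ZNF473 673 and 1699, and SYMPK 803 and 592. YY1 and TUT7 also had peaks of both lists, and CASP8AP2, ERI1 and CPSF3 had PARP1 peaks only. LSM10, LSM11, CPSF2, CSTF2, POU2AF1, CDK2, CCNE1, CCNE2, E2F1 and UPF1 had none.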

How the data were processed

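The data comprised 2 libraries from untreated MDA-MB-231 cells, 1 each for PRMT6 and PARP1, grouped by the antibody in the labels. The methods describe CUT&Tag, and the labels add a ligation protocol. The processing notes name MACS and MACS2 as peak callers, run per library, and the deposited score is the −log10 of the authors' p-value. The submitters' processing notes name Bowtie 0.12.8 and hg19, but 55 PRMT6 and 61 PARP1 peaks ended beyond the GRCh37 chromosomes, so GRCh38 was used. Thresholds and any control library are not given in the sources used here, and read depth is unknown.

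Gene records were those of RefSeq GRCh38.p14. Strand came from the RefSeq promoter table for 15842 genes and from GENCODE for 3870, and 340 were left out. Where both gave one, 15362 of 15429 were the same. Peaks were joined to 5′ ends in Python 3.11.15 with pandas 2.3.3, and intervals came from scipy 1.17.1. The assignment was tested on simulated peaks. A further replication-independent histone gene is not reported here. Members and lists were chosen with earlier results of these data known. Named were all members, with coordinates of the 5 best-ranked peaks per list and the best per type and cluster, and the other peaks at members were added after their values were seen. Alternatives covered window, assignment, score, width, list length, overlap, members and counting unit.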

Additional observations from a re-analysis of the deposited data

How the results depend on the processing

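Of 75 alternative values, 63 were labelled as unchanged and 12 as moved. A count was unchanged within a set fold difference, and a share or median if inside its main interval. Such intervals were wide, as 3.8 to 81.1 for the median PRMT6 percentile, so most of these values could hardly move. Leaving out the duplicated genes of chromosome 1 dropped only genes without a peak, so its counts could not change. The tally therefore does not measure stability. In each of the 11 settings that gave counts, the PRMT6 count was equal to the count with both and the PARP1 count was higher. These settings reused the same few peaks. Over all protein-coding genes, 2636 of the 3599 genes with a PRMT6 peak had both, and 4429 had a PARP1 peak. Within 1 kb, PRMT6 and both fell to 9 genes. Within 500 bp they fell to 8. With a peak counted for the nearest 5′ end only, they were 8, and PARP1 was 15 (21.4%, against 19.8% of all genes treated alike). The 1 kb and 500 bp windows leave out H2AC15, and the 500 bp window also H1-2, although each was the gene nearest to its PRMT6 peak. In the higher-scoring 50% of each list PARP1 stood at 16 genes (22.9%, against 14% of all). The share of PRMT6 peaks that overlap PARP1 was 100% within 1 kb, within 500 bp, in the higher-scoring 50% and among peaks wider than the smallest width. All of these leave out the weak peak near H2AC15. No paired analysis was possible because there was a single library for each protein. Without replicates or read depth, a missing peak does not show that a protein was absent.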

Other observations

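Some peaks inside the histone clusters lay away from any protein-coding promoter. The group from H2AC1 to H4C8 held 3 such PRMT6 peaks among 6 and 2 such PARP1 peaks among 10, and the other groups held 0. Over the whole lists, 3040 of 9080 PRMT6 peaks and 3858 of 11651 PARP1 peaks lay at a protein-coding promoter. A PRMT6 peak (chromosome 6, 25992388 to 25992835, rank 6841) and a PARP1 peak (25992780 to 25993096, rank 5671) met, 24952 and 24691 bp from the 5′ end of H1-1. A PRMT6 peak 3535 bp from the 5′ end of H1-1 (26013964 to 26014252, rank 8745) lay just outside the 3 kb window. The other PRMT6 peak (25758011 to 25758299, rank 8041) was nearest to SLC17A4, and the other PARP1 peak (26171928 to 26172128, rank 7383) to H2BC6, at 11633 bp.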
